A study of Homo sapiens with 16 samples.

Results

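The 10 genes described here encode the transcriptional coactivators YAP and TAZ (*YAP1*, *WWTR1*), their DNA-binding partners (*TEAD1*, *TEAD4*), the kinases that restrain them (*LATS1*, *LATS2*) and well-known target genes (*CTGF*, *CYR61*, *ANKRD1*, *AMOTL2*). They were chosen by symbol, and all 10 were found among the 12676 genes of the deposited count table. RNA-seq was carried out in H1299, a human non-small cell lung cancer cell line. The cells had been infected with a pLKO lentivirus carrying a non-targeting shRNA (shCtrl, 2 libraries) or an shRNA against *YEATS2* (shYEATS2, 2 libraries). Infection with polybrene at 8 µg per ml for 48 h and puromycin selection at 2 µg per ml were common to both groups, and according to the labels selection lasted 4 to 7 days. The cells were pools of infected cells of a single line. The study names a single YEATS2 shRNA, shY2-1, for its duplicate RNA-seq, while the labels do not say which shRNA was used. It also reports RNA-seq with another shRNA, shY2-2, which lowered YEATS2 only partially and shared part of the lower genes. The question was which transcripts change when YEATS2, a subunit of the ATAC histone acetyltransferase complex, is depleted.

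In the Hippo pathway, the kinases LATS1 and LATS2 phosphorylate YAP and TAZ, which are then held in the cytoplasm or degraded. When LATS activity is low, both coactivators enter the nucleus, bind TEAD proteins and switch on genes such as *CTGF*, *CYR61* and *ANKRD1*. *LATS2* and *AMOTL2* are themselves YAP/TAZ targets that act back on the pathway, and in lung cancer cells YAP/TAZ activity is linked to growth, adhesion and matrix signalling. YAP and TAZ are controlled mainly at the level of the protein, which mRNA counts do not measure.

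The listed genes received between 34718921 and 39417787 reads per library. Scaled counts, meaning reads scaled by the TMM method to the mean effective library size, are used below. The targeted gene *YEATS2* had 4482.5 and 4104 scaled counts in shCtrl and 665 and 673 in shYEATS2 libraries, a log2 fold change of -2.68 (false discovery rate, FDR, of 0.000583 in edgeR's quasi-likelihood test). None of 6 leukocyte and none of 5 endothelial markers was listed, which means at most 100 reads in every library. *VIM* and *CDH2*, markers of mesenchymal-type lines such as H1299, were listed. Neither was called, with log2 fold changes of -0.37 and 0.36 (quasi-likelihood FDR 0.0390 and 0.0261). Of 5 epithelial markers *KRT8* and *KRT18* were listed, neither called and with log2 fold changes of opposite sign (0.31 and -0.81, quasi-likelihood FDR 0.0958 and 0.0283). Their summed scaled counts were 30269 and 29099 in shCtrl and 28418 and 19302 in shYEATS2 libraries, and *CDH1*, *EPCAM* and *KRT19* were not listed. Of 8 fibroblast markers only *PDGFRB* was listed, at 8.61 and 17.4 scaled counts in shCtrl and 60.9 and 179 in shYEATS2. *PDGFRB* was called higher (log2 fold change 3.21, quasi-likelihood FDR 0.00757), and its part in the results was not tested. The median log2 fold change over the whole table was -0.0019 on the TMM scale and 0.12 with total counts, and every change below is relative to the TMM scale. In bulk RNA, a change in the number of cells with a transcript and a change in the amount per cell cannot be told apart.

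Of the 10 genes, 2 were called higher in YEATS2 KD cells, *WWTR1* and *LATS1*, and none was called lower at an FDR under 0.01. The FDR is the p of the quasi-likelihood test in edgeR, adjusted by Benjamini and Hochberg over the whole table. Across all genes tested, 12.9% were called higher, 12.5% lower and 25.3% in either direction, so 2 of 10 is close to the share of any genes. At an unadjusted p under 0.05 in the quasi-likelihood fit, 5 were higher and 1, *AMOTL2*, was lower, against 28.7% and 27.8% of all genes. DESeq2, exactTest and limma-trend called none of the 10 lower either, against 17.3%, 19.7% and 12.8% of all genes. They called 3, 4 and 2 of the 10 higher, against 17%, 20.5% and 13% of all genes. The scaled counts of the groups did not overlap for 7 of the 10 genes, against 79.6% of all genes. The median log2 fold change of the 10 genes was 0.30, with a range from -0.33 for *CYR61* to 1.11 for *ANKRD1*. Without shYEATS2 replicate 1 that median was 0.16, and without shCtrl replicate 2 it was 0.20.

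**Figure D1:**
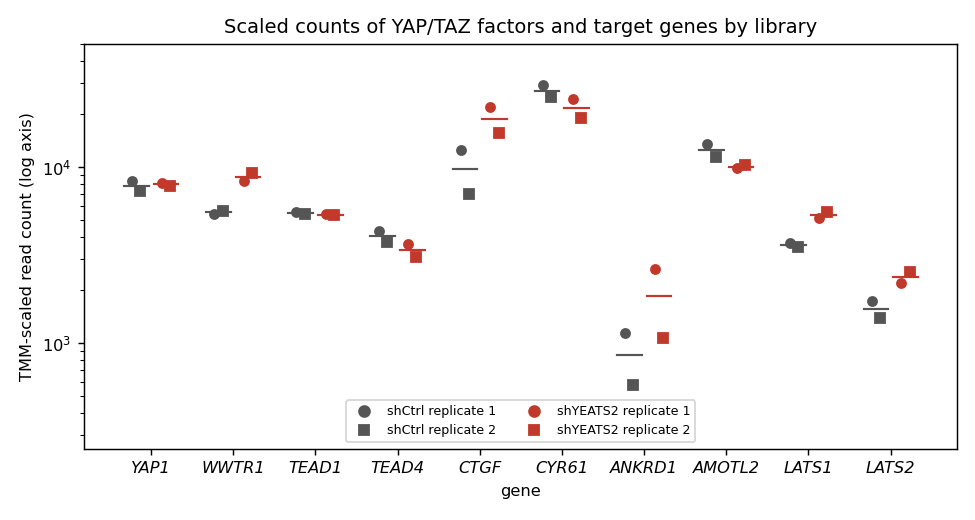
TMM-scaled read counts on a log axis for each of the 10 genes, with 1 point per library, shCtrl in grey and shYEATS2 in red, and a line at each group mean (n = 2). *WWTR1*, *LATS1*, *LATS2* and *CTGF* have both knockdown libraries above both controls, while the *ANKRD1* groups overlap.

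Of the paralogous coactivators, *WWTR1* was called and *YAP1* was not, and the difference between their changes (0.64 on the log2 scale) was not tested. *YAP1*, on chromosome 11 of GRCh37 (hg19) from 101981178 to 102104155, encodes YAP. It had 8303 and 7317 scaled counts in shCtrl and 8107 and 7805 in shYEATS2 libraries. The knockdown values lay between the controls, with a log2 fold change of 0.03 (95% confidence interval -0.22 to 0.27) and a quasi-likelihood FDR of 0.843. *WWTR1*, on chromosome 3 from 149235022 to 149454501, encodes TAZ. Its scaled counts were 5422 and 5651 in shCtrl and 8357 and 9212 in shYEATS2 libraries. Both knockdown libraries stood well above both controls, at group means of 5536 ± 162 (SD, n = 2) and 8784 ± 604 (SD, n = 2). *WWTR1* thus rose 1.59-fold, a log2 fold change of 0.67 with a standard error of 0.10 and a quasi-likelihood FDR of 0.00283. With a library left out, a fit in which the lone library is assumed to vary like the other group, the *WWTR1* value stayed between 0.60 and 0.74, but its FDR was 0.0194 without shCtrl replicate 1 and 0.0120 without shCtrl replicate 2.

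Neither *TEAD* gene among the 10 was called. TEAD1 and TEAD4 are the DNA-binding factors through which YAP and TAZ reach most of their targets. *TEAD1*, on chromosome 11 from 12695968 to 12966284, had 5553 and 5372 scaled counts in shCtrl and 5376 and 5350 in shYEATS2 libraries. The groups overlapped, and the estimated log2 change of *TEAD1* was -0.03 (95% confidence interval -0.24 to 0.18), or 0.09 with total counts. *TEAD4*, on chromosome 12 from 3068496 to 3149842, had 4325 and 3753 scaled counts in shCtrl and 3640 and 3086 in shYEATS2 libraries. Both knockdown values were below both controls by a narrow margin, with a log2 fold change of -0.26 (95% confidence interval -0.56 to 0.03) and a quasi-likelihood FDR of 0.116. For *TEAD4* the value was -0.39 without shYEATS2 replicate 1 (FDR 0.0360 in that test), -0.16 without shCtrl replicate 1 and -0.15 without shYEATS2 replicate 2. The paralogs outside the 10 genes were not called either, at log2 fold changes of 0.20 for *TEAD2* and -0.30 for *TEAD3* (quasi-likelihood FDR 0.140 and 0.0807).

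Of the LATS kinases, *LATS1* was called and *LATS2* was not. *LATS1*, on chromosome 6 from 149979289 to 150039241, had 3686 and 3489 scaled counts in shCtrl and 5160 and 5526 in shYEATS2 libraries. All knockdown values exceeded all controls, and *LATS1* rose 1.49-fold, a log2 fold change of 0.57 with a standard error of 0.09 and a quasi-likelihood FDR of 0.00411. Without shCtrl replicate 1 the log2 fold change of *LATS1* was 0.61 with an FDR of 0.0196 in the same test, and without shCtrl replicate 2 it was 0.54 with an FDR of 0.0309. *LATS2*, on chromosome 13 from 21547175 to 21635725, had 1725 and 1386 scaled counts in shCtrl and 2199 and 2537 in shYEATS2 libraries. The groups did not overlap here either, but the spread within each was wider. The log2 estimate was 0.61 ± 0.14 (standard error), and the quasi-likelihood FDR of 0.0115 just missed the threshold. The FDR of *LATS2* passed with total counts (0.00494), upper quartile scaling (0.006675), DESeq2 (0.000678) and exactTest (0.000363), without shCtrl replicate 1 (0.008935) and without shYEATS2 replicate 1 (0.00733). It did not pass with limma-trend (0.0112), without shCtrl replicate 2 (0.06015, at a log2 value of 0.46) or without shYEATS2 replicate 2 (0.03645). The difference between the changes of the kinases was 0.03 on the log2 scale and was not tested.

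**Figure D2:**
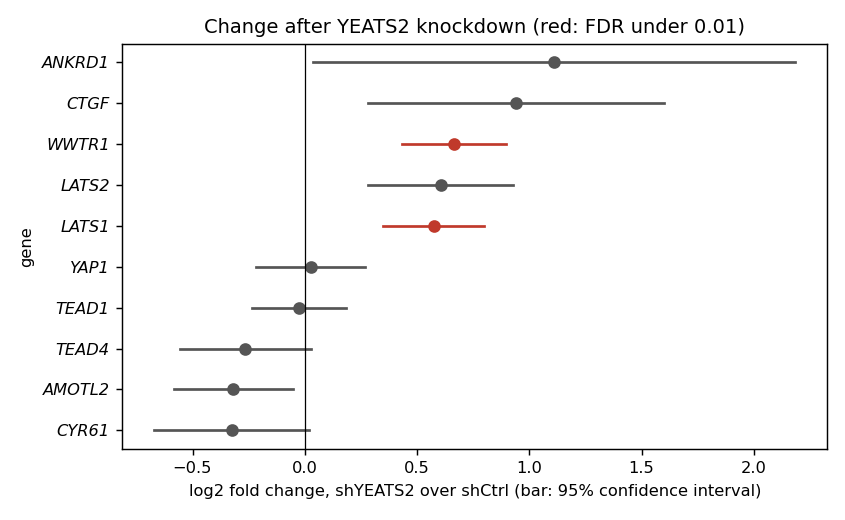
Log2 fold changes of shYEATS2 over shCtrl for the 10 genes, ordered by size, with 95% confidence intervals that are not adjusted for the number of genes. *WWTR1* and *LATS1*, in red, passed an FDR of 0.01. *ANKRD1* and *CTGF* have larger estimates but wider intervals.

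None of the 4 target genes was called. The 250 bases before the RefSeq transcription start of the targets that RefSeq's promoter table covers are shown to place the TEAD motif, GGAATG on either strand, beside their values. The motif is in capitals, and the strand shown is that of the gene. In GRCh37 the windows lie at chr6:132272513-132272762 for *CTGF*, chr10:92680845-92681094 for *ANKRD1* and chr3:134093290-134093539 for *AMOTL2*, all on the minus strand.
CTGF: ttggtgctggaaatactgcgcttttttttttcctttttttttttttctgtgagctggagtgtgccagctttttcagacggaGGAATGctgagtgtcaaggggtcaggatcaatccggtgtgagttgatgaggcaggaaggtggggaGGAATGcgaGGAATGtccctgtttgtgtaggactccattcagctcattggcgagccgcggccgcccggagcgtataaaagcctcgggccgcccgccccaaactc
ANKRD1: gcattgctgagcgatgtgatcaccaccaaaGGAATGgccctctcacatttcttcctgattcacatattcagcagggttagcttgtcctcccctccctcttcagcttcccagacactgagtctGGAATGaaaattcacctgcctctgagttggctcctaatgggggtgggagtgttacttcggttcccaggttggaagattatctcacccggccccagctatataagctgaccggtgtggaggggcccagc
AMOTL2: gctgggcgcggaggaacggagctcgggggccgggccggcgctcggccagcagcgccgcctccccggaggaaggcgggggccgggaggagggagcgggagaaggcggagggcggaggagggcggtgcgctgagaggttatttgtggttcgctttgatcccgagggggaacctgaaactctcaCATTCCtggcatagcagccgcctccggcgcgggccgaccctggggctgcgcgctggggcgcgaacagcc
The *CTGF* window holds 3 copies, the first bases of which lie 169, 104 and 95 bases before the start. *ANKRD1* has 2 copies at 220 and 128 bases before the start, and *AMOTL2* has 1 in the reverse orientation at 69 bases. Of all 27305 windows of this length, 12.1% held the motif. Among the 7 of the 10 genes with a window, *YAP1* also held 1 copy, whereas *WWTR1*, *LATS1* and *LATS2* held none. The windows of *AMOTL2* and *WWTR1* (chr3:149375813-149376062) lie inside the gene spans given in this report, which begin further upstream. Bases before other starts were not searched. The string TGANTCA, a loose form of the AP-1 motif in which N is any base, was held by 6.84% of all windows. It was found 1 time each in *ANKRD1*, as TGATTCA, and *LATS1*, as TGAATCA, and shared no base with a TEAD motif. None of the 7 windows held TGACTCA or TGAGTCA. A CArG box, found in 1.14% of all, was in none of the 7 either. A match is a string of letters and does not show binding.

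*CTGF* encodes a secreted matricellular protein and lies on chromosome 6 from 132269316 to 132272512. It had 12463 and 7018 scaled counts in shCtrl and 21911 and 15536 in shYEATS2 libraries. Both knockdown libraries were above both controls, yet the libraries of each group were far apart. *CTGF* had a log2 fold change of 0.94 ± 0.28 (standard error) and a quasi-likelihood FDR of 0.0293, while the FDR was 0.00307 with edgeR's exactTest, 0.0241 with limma-trend and 0.0891 with DESeq2. Without shCtrl replicate 1 the *CTGF* value was 1.41 and passed the quasi-likelihood test with an FDR of 0.00209, and without shCtrl replicate 2 it was 0.59 with an FDR of 0.0613. *ANKRD1*, a cardiac and muscle ankyrin repeat gene on chromosome 10 from 92671853 to 92680844, had 1132 and 573 scaled counts in shCtrl and 2623 and 1064 in shYEATS2 libraries. The lower knockdown library was below the higher control. Its log2 fold change of 1.11 was the largest of the 10 genes but had a standard error of 0.45 and a quasi-likelihood FDR of 0.0807. The *ANKRD1* value was 1.68 without shCtrl replicate 1, 0.70 without shCtrl replicate 2 and 0.32 without shYEATS2 replicate 1, and without shYEATS2 replicate 2 it was 1.62 and passed with an FDR of 0.00969 in that test.

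The other target genes had negative log2 fold changes and were not called. *CYR61*, a secreted protein of the same CCN family as CTGF, lies on chromosome 1 from 86046444 to 86050272. Its scaled counts were 29179 and 24999 in shCtrl and 24303 and 18945 in shYEATS2 libraries. The groups were separated only narrowly, with a log2 fold change of -0.33 (95% confidence interval -0.67 to 0.02) and a quasi-likelihood FDR of 0.104. Leaving out a library moved the *CYR61* value to -0.52 without shYEATS2 replicate 1 (FDR 0.0134), -0.21 without shCtrl replicate 1 and -0.16 without shYEATS2 replicate 2. *AMOTL2*, which encodes an angiomotin family protein that binds and retains YAP, lies on chromosome 3 from 134074189 to 134094321. It had 13540.0 and 11455 scaled counts in shCtrl and 9817 and 10228 in shYEATS2 libraries. Both knockdown values were below both controls, with a log2 fold change of -0.32 (95% confidence interval -0.58 to -0.05) and a quasi-likelihood FDR of 0.0516. Without shCtrl replicate 1 the *AMOTL2* value was -0.20. Of its homologues, *AMOTL1* had a log2 fold change of -0.50 (quasi-likelihood FDR 0.0438, with -0.77 and 0.00196 without shYEATS2 replicate 1 and -0.26 and 0.0955 without shYEATS2 replicate 2) and *AMOT* one of 0.10 (FDR 0.594 in the same test). The quasi-likelihood test called none of the 3 angiomotin genes, against 25.3% of all genes in either direction. DESeq2, exactTest and limma-trend called none of them either. At an unadjusted p under 0.05 in the quasi-likelihood test 2 were lower, against 27.8% of all genes.

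Levels can be compared between genes only per length of exon. In RPKM on the TMM library sizes, the mean level in shCtrl was highest for *CYR61* at 201 and *CTGF* at 114, followed by *AMOTL2* at 53.0, *TEAD4* at 48.7, *YAP1* at 34.0, *WWTR1* at 18.2, *TEAD1* at 14.0, *ANKRD1* at 13.1, *LATS1* at 11.6 and *LATS2* at 7.61. The control libraries of *AMOTL2* (57.4 and 48.5) and *TEAD4* (52.2 and 45.3) overlapped, and those of *ANKRD1* (17.4 and 8.78) spanned the levels of *TEAD1* and *LATS1*. In shYEATS2 libraries *CTGF* had the highest mean of these levels at 220, above *CYR61* at 161. However, *CTGF* at 182 in replicate 2 lay next to *CYR61* at 180 in replicate 1. That order depends on the length used, here all annotated exons together. It was 2338 bases for *CTGF* and 3698 for *CYR61*, whose whole gene spans 3829. In scaled counts not divided by length, *CYR61* exceeded *CTGF* in every library.

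Ratios of these levels within a library give the balance between related genes. The ratio of *WWTR1* to *YAP1* was 0.493 and 0.583 in shCtrl and 0.779 and 0.892 in shYEATS2 libraries, higher in both knockdown libraries. It rests on lengths of all annotated exons, 8353 and 6311 bases, and so does not give the relative number of transcripts. *CTGF* to *CYR61* gave 0.676 and 0.444 in shCtrl and 1.43 and 1.30 in shYEATS2 libraries, higher in both knockdown libraries. Whether this ratio lies below or above 1 depends on the exon lengths used, and *CYR61* had more scaled counts than *CTGF* in every library. Such ratios were 0.708 and 0.601 against 0.645 and 0.695 for *LATS2* to *LATS1*, which overlapped. For *TEAD4* to *TEAD1* they were 3.66 and 3.29 against 3.19 and 2.71, lower in both knockdown libraries. No test was run on these ratios.

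**Figure D3:**
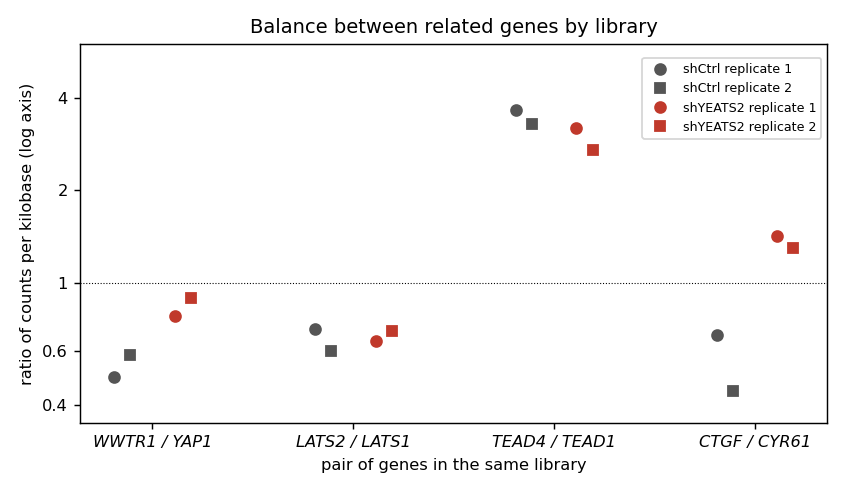
Ratio of counts per kilobase between related genes in the same library, on a log axis, with shCtrl in grey and shYEATS2 in red. The *CTGF* to *CYR61* ratio is higher in both knockdown libraries than in both controls, while the *LATS2* to *LATS1* points overlap. The side of 1 (dotted line) on which a ratio lies depends on the exon lengths used.

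The other genes of the pathway were counted from lists written by role. Without the 10 genes the lists held 101 genes, of which 85 were in the table. Of these, 20 were called higher and 8 lower on the TMM scale, against 12.9% and 12.5% of all genes, and 32 were called higher and 7 lower with total counts, where 18.6% and 9.2% of all genes were. Their median log2 fold change was 0.16, against -0.0019 over the whole table. Of the 28 genes called, 11 were still called without shCtrl replicate 1, 14 without shCtrl replicate 2, 15 without shYEATS2 replicate 2 and 28 without shYEATS2 replicate 1.

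Among 22 tested Hippo kinases and scaffolds, which include *LATS1* and *LATS2*, 7 were called higher and 1 lower. The shares of all genes were 12.9% and 12.5%. *WWC2*, a scaffold related to KIBRA, fell by 1.23 on the log2 scale, from 3492 and 3138 scaled counts in shCtrl to 1536 and 1289 in shYEATS2 libraries. Some kinases that can act on LATS in parallel to, or upstream of, the MST kinases were called higher. These were *MINK1* (log2 fold change 1.14), *TNIK* (0.87) and *TAOK2* (0.71), with quasi-likelihood FDR values of 0.00178, 0.00708 and 0.00266. Not called were *TAOK1* (0.34), *TAOK3* (0.30), *MAP4K2* (0.39), *MAP4K3* (0.30) and *MAP4K5* (-0.19). *STK3*, which encodes MST2, was just past the threshold (0.48, FDR 0.00990 in the same test), and its paralog *STK4* had a log2 fold change of 0.01 (FDR 0.956). *MAP4K4* (0.39) and *MOB1A* (-0.36), the most abundant genes per length that were not called, had quasi-likelihood FDR values of 0.0266 and 0.0180. Of these calls, *TNIK* was lost without either shCtrl library (FDR 0.0114 and 0.0178), *TAOK2* without shCtrl replicate 2 (0.0165) and *STK3* without either control (0.0594 and 0.0443) or without shYEATS2 replicate 2 (0.0283).

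In the list of inhibitors and of junction and cytoskeletal regulators, 33 genes were tested. Of these, 6 were called higher and 4 lower, against 12.9% and 12.5% of all genes. The median log2 fold change of -0.06 became 0.06 with total counts. On that scale 11 were called higher and 4 lower, against 18.6% and 9.2% of all genes. That median was also above 0, at 0.03, without shCtrl replicate 1, and it was -0.18 without shCtrl replicate 2. Striatin-interacting phosphatase components that oppose the MST kinases were among the lower calls, with *STRN* at a log2 fold change of -0.95 and *SIKE1* at -0.91 (quasi-likelihood FDR 0.00129 and 0.00143). *FRMD6*, a FERM domain gene upstream of the kinases, was at -1.07 (FDR 0.00810 in the same test) and *RASSF1*, an MST-binding scaffold, at 0.91 (FDR 0.00457). The 14-3-3 genes *YWHAZ* (-0.20) and *YWHAB* (-0.20), whose products hold phosphorylated YAP in the cytoplasm, were not called. Without shCtrl replicate 1 the call was lost for *FRMD6* (FDR 0.0151) and *RASSF1* (0.0119), without shCtrl replicate 2 for *RASSF1* (0.0126) and without shYEATS2 replicate 2 for *FRMD6* (0.0253).

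Among 12 tested coactivators, TEAD genes and cofactors, 3 were called higher, including *WWTR1*, and 1 lower, against 12.9% and 12.5% of all genes. *VGLL4*, which competes with YAP for TEAD, had 1086 and 1039 scaled counts in shCtrl and 2168 and 2662 in shYEATS2 libraries. Both knockdown libraries were far above both controls, and *VGLL4* rose by 1.18 on the log2 scale with a quasi-likelihood FDR of 0.00127. *VGLL2*, another TEAD-binding cofactor, had 24.7 and 44.5 scaled counts in shCtrl and 106 and 217 in shYEATS2 libraries, with a log2 fold change of 2.22 and a quasi-likelihood FDR of 0.00736. Without shYEATS2 replicate 2 it was 1.61 (FDR 0.0186) and without shCtrl replicate 1 it was 1.86 (FDR 0.0193). *TP73*, which encodes a transcription factor that can bind YAP, fell by 1.17 on the log2 scale (quasi-likelihood FDR 0.00232, and 0.0109 without shCtrl replicate 2).

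A signature list of 22 YAP/TAZ target genes, which includes *CTGF*, *CYR61*, *ANKRD1*, *AMOTL2* and *LATS2*, had 20 genes in the table. Of these, 5 were called higher and 2 lower, all of them outside the 10 genes, against 12.9% and 12.5% of all genes. The median log2 fold change of the 20 genes was 0.54, against -0.0019 over the whole table. With total counts 8 were called higher and 1 lower, on a scale where 18.6% and 9.2% of all genes were called. *AXL*, a receptor tyrosine kinase, had 53404 and 54601 scaled counts in shCtrl and 17266 and 10382 in shYEATS2 libraries. It fell by 1.97 on the log2 scale with a standard error of 0.22 and a quasi-likelihood FDR of 0.00146, and its value lay between -2.38 and -1.64 with a library left out. The higher calls were led by *GADD45A*, a growth arrest and stress gene (log2 fold change 0.93, quasi-likelihood FDR 0.00130), and *TGFB2*, a secreted TGF-β ligand (0.83, FDR 0.00396). *FJX1*, a homologue of *Drosophila* four-jointed, was just past the threshold at -0.74 (quasi-likelihood FDR 0.00991) and *NT5E*, an abundant ectonucleotidase, was not called at 0.01. Of the higher calls, only *GADD45A* held in every fit with a library left out. *TGFB2*, *CRIM1*, *PTPN14* and *ARHGEF17* lost theirs without either shCtrl library. With a library left out, their log2 values lay at 0.66 to 0.99, 0.47 to 0.70, 0.41 to 0.58 and 0.53 to 0.67 respectively. *CRIM1*, *PTPN14* and *ARHGEF17* also lost theirs without shYEATS2 replicate 2. *FJX1* lost its call without shCtrl replicate 1 or shYEATS2 replicate 2, and its value lay between -0.94 and -0.56.

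**Figure D4:**
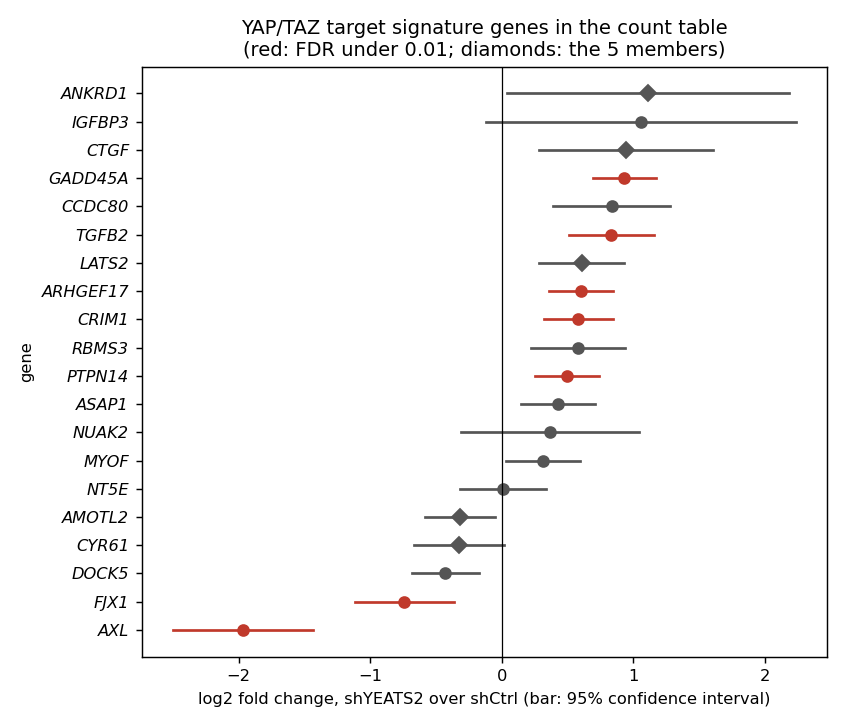
Log2 fold changes of shYEATS2 over shCtrl, with 95% confidence intervals, for the 20 signature genes in the count table. Genes in red passed an FDR of 0.01, with *AXL* and *FJX1* below 0 and 5 above, and diamonds mark the 5 of the 10 genes that belong to the signature.

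Families of the targets and the AP-1 factors, which often bind DNA beside TEAD, gave few calls. Of all genes, 12.9% were called higher and 12.5% lower. Of 6 CCN genes 3 were in the table, and *NOV* was called higher at 23.7 and 33.6 scaled counts in shCtrl and 123 and 162 in shYEATS2 libraries (log2 fold change 2.31, quasi-likelihood FDR 0.00189). Of 3 ankyrin repeat genes related to *ANKRD1* only *ANKRD1* itself was listed. Among 10 tested AP-1 genes 1 was called higher, *ATF3* (1.30, quasi-likelihood FDR 0.00542, and 0.0154 without shYEATS2 replicate 2), and none lower, with 5 higher and 2 lower at an unadjusted p under 0.05 (28.7% and 27.8% of all genes). DESeq2 called 2 AP-1 genes higher and 2 lower (17% and 17.3% of all genes), exactTest 4 and 2 (20.5% and 19.7%), and limma-trend 1 and 1 (13% and 12.8%). *FOSL1*, the most abundant of the AP-1 genes that were not called, had 27123 and 22162 scaled counts in shCtrl and 16654 and 12188 in shYEATS2 libraries (log2 fold change -0.77, quasi-likelihood FDR 0.0110). With a library left out its value lay between -1.01 and -0.56, and it passed without shCtrl replicate 2 (FDR 0.00769) and without shYEATS2 replicate 1 (FDR 0.00184). *JUND* was also not called (0.27, FDR 0.123 in that test).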

How the data were processed

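RNA-seq of H1299 cells was analysed for 2 shCtrl and 2 shYEATS2 libraries, which the legends of the study describe as independent biological replicates. The ChIP-seq samples were not used here. The authors deposited raw counts per gene, made with HTSeq from alignments to hg19 by the RNA-Seq unified mapper (the labels also name TopHat2); the gene annotation is not given in the sources used here. Each listed gene has over 100 reads in some library. The columns of fold changes and p-values in the same table are the authors' own comparison and were not used.

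All 12676 genes had at least 10 counts in at least 2 libraries and entered a quasi-likelihood fit in edgeR 4.0.16 under R 4.3.3. TMM scaling was used without a replicate block, p-values were adjusted by Benjamini and Hochberg, and calls required an FDR below 0.01. The fit was first tested on simulated data. Alternatives were DESeq2 1.42.0, exactTest, limma-trend (limma 3.58.1, pseudocount of 1), other scalings, filters and thresholds, a replicate block and each library left out. The members and gene lists were chosen with earlier results of these data known. Named were the 10 genes, the paralogs *TEAD2*, *TEAD3*, *AMOT* and *AMOTL1*, and from each list the 4 largest changes past the threshold and the 2 genes with the highest level per length that did not pass. *STK3*, *STK4*, *CRIM1*, *PTPN14* and *ARHGEF17* were named after their values were seen. So were *TAOK1*, *TAOK3*, *MAP4K2*, *MAP4K3* and *MAP4K5*.

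Positions and exon lengths come from GENCODE v44 on GRCh37 (98.3% of identifiers matched). Promoter windows are from RefSeq (GRCh38.p14) for 7 of the 10 genes, without *TEAD1*, *TEAD4* and *CYR61*, and were placed on GRCh37 by exact match. The kit does not mark strand, so reads from antisense transcripts that share exon bases (278 in *CTGF*, 756 in *WWTR1*, 257 in *LATS1*, 639 in *YAP1*) cannot be told apart.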

Additional observations from a re-analysis of the deposited data

How the results depend on the processing

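With a replicate block in the quasi-likelihood fit, 5 of the 10 genes were called higher and 1, *CYR61*, was called lower (FDR 0.00832). *CTGF* and *ANKRD1*, with FDR values of 0.000141 and 0.000145, joined *WWTR1*, *LATS1* and *LATS2*. Of the 85 other pathway genes, 32 were called higher and 18 lower. The block called 2742 of all 12676 genes higher and 2715 lower, also more than without it. The replicate differences of the groups correlated across genes at r = 0.403, but the labels give only shared numbers for 2 pairs, so the block is not taken as the design. The number of the 10 genes called higher was 4 with exactTest and 4 at an FDR under 0.05, and it ranged from 0, without shCtrl replicate 2, to 3 with a library left out. For the other pathway genes, the number called lower was 14 with DESeq2, 15 with exactTest and 18 at an FDR under 0.05, and 5 to 13 with a library left out. The number called higher was 32 with total counts and 35 at an FDR under 0.05, and 8 to 22 with a library left out. How many of all genes passed an FDR of 0.05 was not counted, so the counts at that threshold have no share beside them. At an FDR under 0.01, DESeq2 called 17.3% of all genes lower and exactTest 19.7%. Higher calls made up 20.5% of all genes with exactTest and 18.6% with total counts. *TEAD1* changed sign with total counts (0.093), and *YAP1* ranged from -0.060 to 0.12 with a library left out. Of 130 values of single genes, 110 kept sign and side of the threshold, 13 newly passed, 4 no longer passed and 3 changed sign. All genes tested gave 1630 higher and 1581 lower calls, 2363 and 1166 with total counts, 2596 and 2497 with exactTest, 2742 and 2715 with the block, and 775 to 1971 higher and 850 to 2024 lower with a library left out. The p-values rest on 2 libraries per group, and standard errors of the log2 values had a median of 0.12.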

Other observations

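Some targets varied between libraries of 1 group by more than most genes did. The library numbered 1 exceeded the library numbered 2 by 0.83 on the log2 scale for *CTGF* in shCtrl, a distance that 0.836% of all genes reached, and by 0.50 in shYEATS2, which 7.64% reached. For *ANKRD1* the values were 0.98 (0.363% of genes) and 1.30 (0.323%), and for *IGFBP3*, a secreted signature gene named after its values were seen, 1.13 (0.213%) and 1.37 (0.276%). *CYR61* differed by 0.22 and 0.36, distances that 22.9% and 16.2% of genes reached. *WWTR1*, *LATS1* and *TEAD1* differed by at most 0.14 in either group. The cause was not tested.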
